A study of Mus musculus with 4 samples.

Results

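The 10 genes described here are known from calcification of vessels or from the formation of bone and cartilage. They are the transcription factors Runx2, Sox9 and Sp7, the pyrophosphate and phosphate genes Ank, Enpp1, Alpl and Phospho1, and the matrix proteins Mgp, Spp1 and Chad. They were taken by symbol from the 54752 gene IDs of the deposited count table. All 10 were found, and all 10 were among the 16498 genes that passed the filter on low counts. RNA came from grafts of mouse abdominal aorta 4 weeks after transplantation. The 2 ALLO libraries are from allografts, which the title of the series describes as in chronic rejection. The 2 ISO libraries form the other group, and the labels leave that name unexplained. The labels give no genotype, strain, sex, age or drug for either group. Whether each library is a different animal is not stated either. The p-values therefore measure only the spread between these libraries, which may in part be technical.

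Mineral in arteries is hydroxyapatite, and its growth is held back by inorganic pyrophosphate outside the cell. ENPP1 makes pyrophosphate from ATP, ANK passes pyrophosphate and ATP out of the cell, and the phosphatase ALPL breaks pyrophosphate down to phosphate, which feeds mineral. In calcifying arteries smooth muscle cells can take up a bone- or cartilage-like programme under RUNX2 and SOX9, while matrix Gla protein and osteopontin, the products of Mgp and Spp1, restrain crystal growth. Calcium and mineral themselves were not measured here.

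The libraries held 17532344 to 20194854 counts. Summed markers of smooth muscle, the defining cell of this tissue, reached 29900 and 30300 CPM in the ISO libraries and 1260 and 2550 CPM in ALLO. CPM are counts scaled to library size and, by the TMM method, to composition. Macrophage markers summed to 407 and 151 CPM in ISO and 3920 and 4180 CPM in ALLO, and all 10 of them were called higher. T cell markers summed to 9.59 and 3.74 CPM against 297 and 281 CPM, with 8 of 8 called higher. ISO replicate 1 stood apart. Its counts were 10647 for Xist, made from the inactive X chromosome, and 0 for Ddx3y, a gene of the Y chromosome, whereas the other libraries had at most 8 and at least 2105. It also held more of the marker sums of macrophages (2.71 times those of ISO replicate 2), T cells (2.56 times) and neutrophils (9.66 times). Of the other markers, 4 of 6 for plasma cells were called higher and 4 of 6 for endothelium lower, those for adipocytes had 1 higher and 1 lower of 6, and those for erythroid cells 1 higher of 5. Fibroblast markers summed to 4340 and 4790 CPM in ISO and 8860 and 12000 CPM in ALLO, although none of the 6 was called higher and 1 was called lower. Results that rest on ISO replicate 1 are given with and without it.

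Of the 10 genes, 1 was higher in ALLO (Runx2), 2 were lower (Ank and Phospho1) and 7 did not pass the threshold, a Benjamini-Hochberg adjusted p under 0.05 in edgeR's quasi-likelihood test over all 16498 genes. Of all genes tested 33.1% were called, 18.4% higher and 14.8% lower, so 3 of 10 is near the background and is no result about the genes as a group. The median log2 change, ALLO minus ISO, was 0.19 over the 10 genes and 0.03 over all genes tested. Scaling by library size alone moved the median of all genes by 0.19 and the share of calls that were higher from 55.4% to 65.5%, and changes are given relative to the TMM scaling. In whole tissue, fewer cells of a type and less RNA per cell cannot be told apart.

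**Figure D1:**
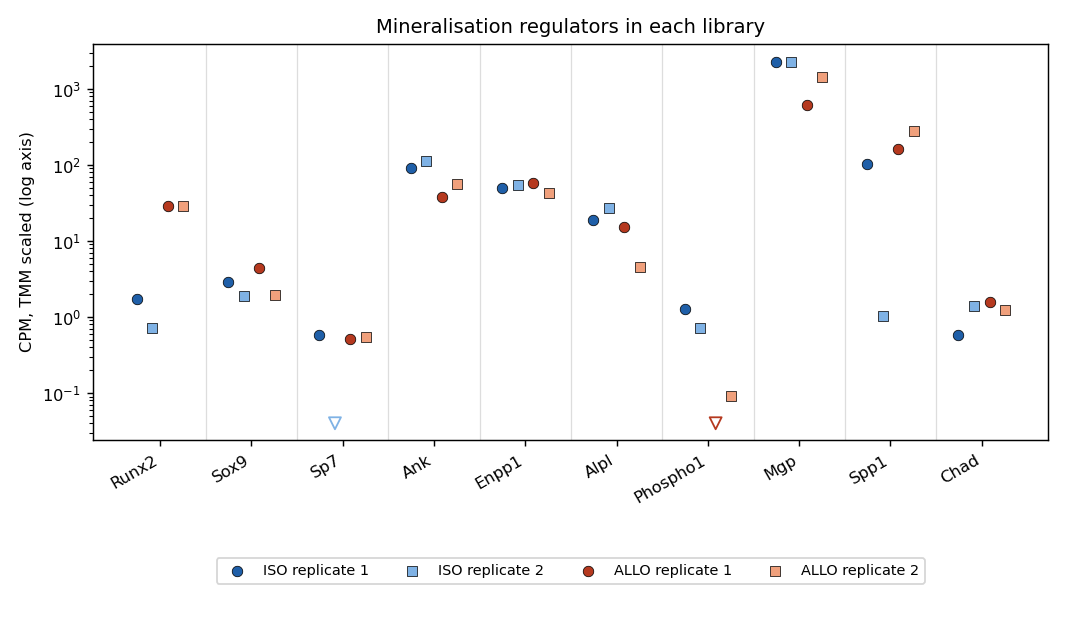
Level of each of the 10 genes in each library, as TMM-scaled CPM on a log axis, with 1 point per library (circles for replicate 1, squares for replicate 2, blue shades for ISO, red shades for ALLO). Open triangles at the bottom mark libraries with 0 counts. Runx2 is at 29.1 and 28.7 CPM in ALLO and at 1.70 and 0.724 CPM in ISO, and Spp1 is at 102 CPM in one ISO library and 1.03 CPM in the other.

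Levels of different genes were compared per kilobase of exon (CPM per kb, from the gene length in the deposited table). In ISO, Mgp stood far above the rest at a mean of 1910 CPM per kb, higher than 99.9% of the genes tested. Spp1 followed at 31.3, a mean of 61.9 and 0.623 that describes neither library, and then Ank at 28.4 CPM per kb. Alpl at 5.66 and Enpp1 at 5.05 CPM per kb overlapped between libraries. Chad (0.587), Sox9 (0.573) and Phospho1 (0.495) also overlapped, and Runx2 (0.137) and Sp7 (0.0860) had the lowest levels. In ALLO the order began with Mgp (866 CPM per kb), Spp1 (134), Ank (13.0) and Enpp1 (4.92). Runx2 came next at 3.27 CPM per kb, where its libraries (3.29 and 3.25) lay between the 2 values of Alpl (3.76 and 1.14). Chad (0.839) and Sox9 (0.764) overlapped again, and Sp7 (0.156) and Phospho1 (0.0224) were lowest.

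Runx2, the transcription factor that starts osteoblast formation (ENSMUSG00000039153.16, chromosome 17, 44495987 to 44814797, minus strand, mm10), had 29 and 12 counts in the ISO libraries and 566 and 633 in the ALLO libraries. Both ALLO libraries lay far above both ISO libraries and close to each other, at 28.9 ± 0.249 CPM against 1.21 ± 0.687 CPM (mean ± SD, n = 2). Runx2 was 23.7-fold higher in ALLO, a log2 change of 4.57 ± 0.46 (SE, edgeR adjusted p = 0.00445). It was called under all 13 alternative settings. The fold was 39.2 without ISO replicate 1, the comparison among libraries that share the Y-linked transcript. Of its exonic bases 5.87% overlap Runx2os1 on the other strand, whose reads cannot be told apart if strand was ignored in counting.

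Of 12 partners of RUNX and SOX factors, 4 were higher and 2 lower, beside 18.4% and 14.8% of all genes, with a median of 0.78, and 1 rather than 2 were lower without ISO replicate 1, ALLO replicate 1 or ALLO replicate 2. The other RUNX genes were among the higher. Runx1, the family member of blood cell formation, had 130 and 57 counts in ISO and 1650 and 2706 in ALLO, 18.8-fold higher (29.9-fold without ISO replicate 1). Runx3, the family member of cytotoxic T cells and NK cells, had 53 and 22 against 831 and 1361 counts, 23.5-fold higher (38.8-fold without ISO replicate 1). Cbfb, the subunit that all RUNX proteins bind, rose 2.87-fold. The edgeR adjusted p values of these 3 genes were 0.00479 to 0.0105. RUNX2 is also known from T cells and plasmacytoid dendritic cells. Summed markers of plasmacytoid dendritic cells were 152 and 166 CPM in ISO and 496 and 549 CPM in ALLO, with 4 of 6 called higher. Siglech, a surface lectin of these cells, had 6 and 0 counts in ISO and 194 and 127 in ALLO. Runx2 was 2.34 times as high in ISO replicate 1 as in ISO replicate 2. The same ratio was 9.66 for the neutrophil, 3.63 for the erythroid and 2.76 for the osteoblast sum. It was 2.71 for the macrophage, 2.56 for the T cell and 0.915 for the plasmacytoid dendritic cell sum. Most of that last sum was Bst2 (58.4 and 88.7 CPM in ISO replicates 1 and 2) and Tcf4 (83.9 and 71.6 CPM). Within ISO, 4 of its 6 markers had their larger value in replicate 1, among them Siglech and Tcf4, the latter not called between the groups. Bst2 and Cox6a2 (0 and 4 counts in ISO) had theirs in replicate 2. The part of T cells, macrophages and plasmacytoid dendritic cells in the Runx2 result was not tested.

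Markers of osteoblasts gave another picture between the groups. Bglap, which encodes osteocalcin, had 0 counts in 3 libraries and 2 in ALLO replicate 2. Ibsp, bone sialoprotein, had 16 and 3 counts in ISO and 2 and 0 in ALLO. Dmp1, a matrix protein of osteocytes, had 4 and 0 counts in ISO and 0 and 2 in ALLO. The 6 osteoblast markers, Sp7 among them, summed to 4.50 and 1.63 CPM in ISO and 3.49 and 2.27 CPM in ALLO, so the groups overlapped.

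**Figure D2:**
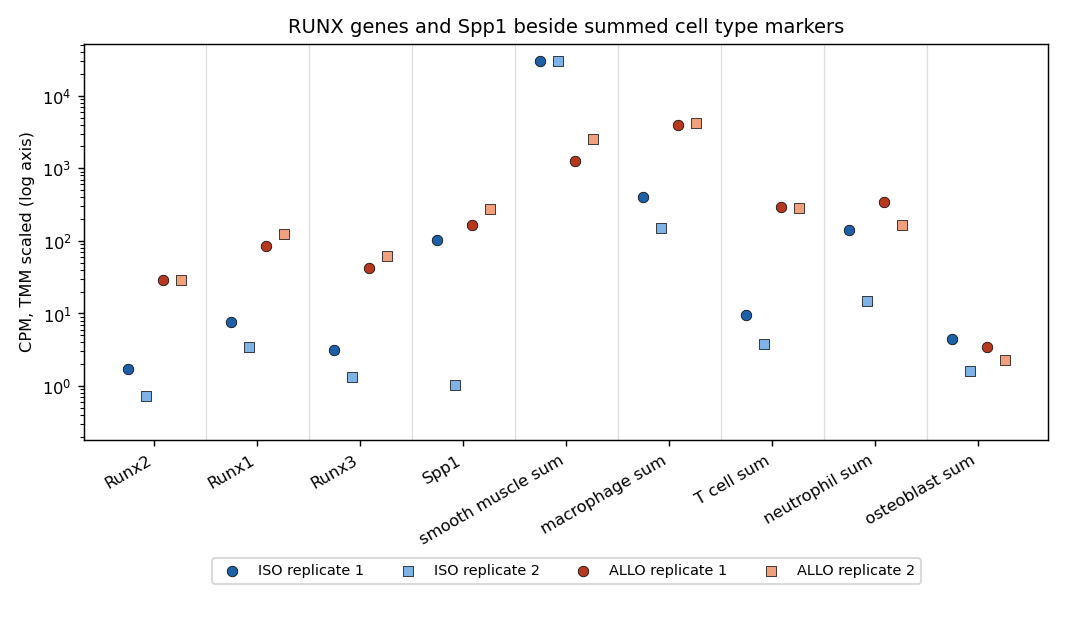
Runx2, Runx1, Runx3 and Spp1 beside the summed markers of 5 cell types, as TMM-scaled CPM per library on a log axis, with blue for ISO and red for ALLO. The RUNX genes, macrophage and T cell sums are higher in both ALLO libraries. The osteoblast sum stays between 1.63 and 4.50 CPM with the groups overlapping. Within ISO, these genes and sums, the osteoblast sum included, are higher in replicate 1.

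Promoter sequences were at hand in RefSeq (GRCm38.p6) for 7 of the 10 genes, in 9 stretches, and are described here for the letters that RUNX and SOX proteins favour. The RUNX core TGTGGT, searched on both strands and so also as its complement ACCACA, occurred in the 250 bases before a start of Runx2, Spp1 and Enpp1, which is 3 of 9 stretches, against 14% of 32851 mouse promoters of that length. The SOX core ACAAAG, which reads as CTTTGT on the other strand, occurred in both stretches of Alpl and both of Spp1, against 16.5% of all. In the promoters of Runx2, Spp1 and Enpp1 the RUNX core starts 80, 128 and 144 bases before the RefSeq start, each time as ACCACA on the printed strand. For Runx2 that start and its core lie inside the gene span given above, which ends at 44814797 on the minus strand. Ank, which was lower in ALLO, is set beside them as a promoter with neither core. The stretches of Phospho1, also called lower, and of Chad, not called, hold neither core as well. A match is a run of letters and shows no binding. Of the 3 genes with a RUNX core, Runx2 alone was called between the groups. Capitals mark the cores, and the strand of the gene is printed 5′ to 3′.
Runx2, chr17:44814628-44814877, minus strand: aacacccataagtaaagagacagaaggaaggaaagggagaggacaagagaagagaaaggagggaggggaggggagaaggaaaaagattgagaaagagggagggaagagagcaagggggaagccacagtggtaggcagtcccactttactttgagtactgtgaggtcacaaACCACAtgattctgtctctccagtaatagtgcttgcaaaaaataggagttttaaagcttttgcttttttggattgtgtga
Spp1, chr5:104434861-104435110, plus strand: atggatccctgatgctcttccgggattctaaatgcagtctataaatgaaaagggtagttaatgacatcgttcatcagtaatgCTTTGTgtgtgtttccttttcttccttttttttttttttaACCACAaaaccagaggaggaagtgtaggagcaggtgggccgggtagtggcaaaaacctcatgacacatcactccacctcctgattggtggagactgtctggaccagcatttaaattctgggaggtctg
Enpp1, chr10:24712160-24712409, minus strand: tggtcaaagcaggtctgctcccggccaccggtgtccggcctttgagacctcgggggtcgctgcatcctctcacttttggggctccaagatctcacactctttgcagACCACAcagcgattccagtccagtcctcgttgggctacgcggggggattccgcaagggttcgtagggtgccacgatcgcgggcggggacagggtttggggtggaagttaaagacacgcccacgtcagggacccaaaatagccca
Ank, chr15:27466427-27466676, plus strand: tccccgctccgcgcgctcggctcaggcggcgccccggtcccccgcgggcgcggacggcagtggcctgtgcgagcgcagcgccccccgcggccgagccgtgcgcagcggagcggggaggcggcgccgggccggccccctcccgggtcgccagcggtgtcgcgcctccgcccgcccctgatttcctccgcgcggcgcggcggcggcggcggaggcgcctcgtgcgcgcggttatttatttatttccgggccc
The Ank stretch is 81.2% G and C, that of Enpp1 61.2%, that of Runx2 44.8% and that of Spp1 43.6%. The median over all mouse promoters searched was 52.4%.

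Sox9, the master regulator of cartilage (ENSMUSG00000000567.5, chromosome 11, 112782224 to 112787760), had 49 and 31 counts in ISO and 85 and 43 in ALLO. The groups overlapped once scaled, at 2.87 and 1.87 CPM against 4.37 and 1.95 CPM. The log2 change was 0.41 ± 0.59 (95% interval -1.09 to 1.91, edgeR adjusted p = 0.631), so a change of either sign was not detectable. Sp7, the osteoblast factor that acts after RUNX2 (ENSMUSG00000060284.7, chromosome 15, 102356606 to 102367182), was near the limit of the libraries. It had 10 and 0 counts in ISO and 10 and 12 in ALLO. ISO replicate 1 matched the ALLO libraries at 0.585 CPM against 0.514 and 0.545 CPM, and the log2 change had a 95% interval of -2.50 to 4.17.

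Of 16 osteoblast and bone matrix genes, 9 could be tested, 0 were called higher and 3 lower by edgeR, beside 18.4% and 14.8% of all genes, with a median log2 change of -0.40. Col1a1, a collagen of bone matrix and of fibroblasts, did not pass (edgeR adjusted p = 0.0702). It was at 1970 and 3360 CPM in ISO and at 5920 and 10500 CPM in ALLO. With no filter or with the replicate block, edgeR called 1 gene of the list higher in place of 0. At an unadjusted p of 0.05 edgeR had 1 higher and 4 lower, DESeq2 called 2 higher and limma-voom 1, and edgeR called 1 higher without ISO replicate 2 or without ALLO replicate 1. The 3 lower genes were Sost, the WNT antagonist sclerostin (24936 and 21057 counts in ISO, 99 and 36 in ALLO, 407-fold lower, and 812- or 266-fold when ALLO replicate 1 or 2 was dropped), Phex and Smpd3. Phex, an endopeptidase of bone that governs phosphate, had 143 and 181 counts in ISO and 4 and 1 in ALLO, 75.1-fold lower (edgeR adjusted p = 0.00495). Leaving out ALLO replicate 1 gave 182-fold and leaving out ALLO replicate 2 45.3-fold. Smpd3, a sphingomyelinase needed for bone mineral, was 2.40-fold lower, and did not pass when ISO replicate 2 or ALLO replicate 1 was dropped (edgeR adjusted p = 0.0985 and 0.0881).

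Cartilage genes were split. Of 16 genes 12 were tested, 4 were called higher and 4 lower, beside 18.4% and 14.8% of all genes, and the median was -0.61. Collagen genes led the higher side. Col11a1, a minor fibril collagen of cartilage, had 4 and 2 counts in ISO and 379 and 642 in ALLO, a log2 change of 7.04 ± 0.50 (edgeR adjusted p = 0.00283). Col10a1, the collagen of hypertrophic cartilage, had 6 and 19 counts in ISO and 343 and 687 in ALLO, 32.4-fold higher, and 21.0- or 67.4-fold when ISO replicate 1 or 2 was dropped. Col2a1, the main cartilage collagen, had 2 and 0 against 102 and 222 counts, a ratio of 131 with a 95% counting interval of 23.3 to 5220. On the lower side Cytl1, a secreted protein of cartilage, fell from 327 ± 38.1 to 16.3 ± 2.90 CPM. Hapln1, which links hyaluronan to aggrecan, had 127 and 86 counts in ISO and 8 and 4 in ALLO, 21.1-fold lower (32.7-fold without ALLO replicate 1). Sox6, a partner of SOX9, was 4.85-fold lower (edgeR adjusted p = 0.0151). The remaining calls of the list were Matn4 and Ihh. Matn4 was higher, with 21 and 18 counts in ISO and 70 and 80 in ALLO (edgeR adjusted p = 0.0487). Ihh was lower, with 225 and 155 counts in ISO and 2 and 18 in ALLO. Matn1, which marks mature cartilage, and Ucma were at 0 in all 4 libraries. The 10 chondrocyte markers, Sox9 among them, summed to 35.3 and 54.2 CPM in ISO and 46.9 and 95.7 CPM in ALLO, and the groups overlapped. Most of that sum was Acan, the cartilage proteoglycan aggrecan, at 24.3 and 45.8 CPM in ISO and 35.2 and 82.7 CPM in ALLO. Twist1, which opposes RUNX2 in bone, fell 3.73-fold.

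Of the pyrophosphate genes Ank was lower in ALLO. Ank, the exporter (ENSMUSG00000022265.7, chromosome 15, 27466677 to 27594909, plus strand), had 1575 and 1874 counts in ISO and 733 and 1237 in ALLO. The groups did not overlap, at 103 ± 14.9 CPM and 46.9 ± 13.1 CPM. Ank fell 2.19-fold, a log2 change of -1.13 ± 0.26 (95% interval -1.80 to -0.46, edgeR adjusted p = 0.0289). The call was lost without ISO replicate 2 or ALLO replicate 1 (edgeR adjusted p = 0.0838 and 0.0711) and with library size scaling (0.0564), within a range of 0.00323 to 0.0838 over 13 alternatives.

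Enpp1, the enzyme that makes pyrophosphate (ENSMUSG00000037370.13, chromosome 10, 24637914 to 24712159), lay within a narrow range and its groups overlapped. It had 845 and 898 counts in ISO and 1122 and 953 in ALLO, or 49.4 and 54.2 CPM against 57.7 and 43.3 CPM. Its log2 change of -0.04 ± 0.21 had a 95% interval of -0.57 to 0.50 (edgeR adjusted p = 0.909), and its sign turned with library size scaling (0.15) and without ISO replicate 2 (0.01) or ALLO replicate 2 (0.16). Alpl, the phosphatase of bone, liver and kidney (ENSMUSG00000028766.10, chromosome 4, 137741733 to 137796384), had 319 and 448 counts in ISO and 295 and 101 in ALLO. ALLO replicate 2 was the low library at 4.58 CPM, while ALLO replicate 1 at 15.2 CPM was near ISO replicate 1 at 18.7 CPM. The log2 change was -1.21 ± 0.60 (edgeR adjusted p = 0.182), and without ALLO replicate 1 Alpl was called lower, at -2.29 ± 0.40 (edgeR adjusted p = 0.0301, the lowest of 13 alternatives, which ran to 0.345). Without ALLO replicate 2 the change was -0.59, or 1.5-fold in place of 2.32-fold, and was not called (edgeR adjusted p = 0.269).

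Ratios within a library do not depend on scaling, and were taken on counts per kilobase. Alpl over Enpp1 was 0.960 and 1.27 in ISO and 0.669 and 0.270 in ALLO, lower in both ALLO libraries. Alpl over Ank was 0.181 and 0.214 in ISO and 0.360 and 0.0731 in ALLO, with the ALLO libraries on either side of ISO. Ank exceeded Enpp1 by 5.30 and 5.93 times in ISO and by 1.86 and 3.69 times in ALLO.

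Phospho1, a phosphatase that frees phosphate inside matrix vesicles (ENSMUSG00000050860.6, chromosome 11, 95824499 to 95832140), had 22 and 12 counts in ISO and 0 and 2 in ALLO. Over both libraries the level was 20.9 times as high in ISO, with a 95% counting interval of 3.28 to 875 on read pairs. It passed the threshold (log2 change -4.22 ± 1.14, edgeR adjusted p = 0.0427), but not without ISO replicate 2 (0.132), ALLO replicate 1 (0.162) or ALLO replicate 2 (0.0777), nor with no filter (0.0732) or the replicate block (0.0884). The fitted fold of 18.7 became 10.1 without ALLO replicate 1 and 143 without ALLO replicate 2, where the ALLO group is at 0 counts and the value depends on the fit. Without ISO replicate 1 Phospho1 did not pass the filter on low counts and could not be fitted. Of its exonic bases in GENCODE M21, 89.6% are shared with Zfp652 on the same strand or Abi3 on the other, so its counts are uncertain.

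Of 10 further genes of phosphate and pyrophosphate handling, 2 were called higher, near the 18.4% of all genes, and 4 lower, beside 14.8% of all genes, with a median of -1.01. The sodium-phosphate importers went opposite ways. Slc20a1 had 576 and 473 counts in ISO and 1104 and 1495 in ALLO, a rise of 2.00-fold (edgeR adjusted p = 0.0188). That call was lost without ISO replicate 1 (0.0513) or 2 (0.119), and 13.1% of its exonic bases overlap genes on the other strand. Slc20a2, whose loss is known to cause calcification of brain vessels, had 1750 and 2113 counts in ISO and 475 and 830 in ALLO. It fell 3.70-fold (edgeR adjusted p = 0.00935). The phosphate exporter gene Xpr1 fell 2.76-fold, but did not pass once ALLO replicate 2 was dropped (edgeR adjusted p = 0.0510). Entpd1, the CD39 ectonucleotidase that removes phosphates from ATP, fell 2.23-fold, a call lost without either ISO library (edgeR adjusted p = 0.0537 and 0.101). Ppa1, the pyrophosphatase of the cytosol, rose 1.72-fold, a call lost when any 1 library was left out. Abcc6, the transporter behind pseudoxanthoma elasticum, had 10 and 13 counts in ISO and 8 and 0 in ALLO and did not pass. Without ISO replicate 1 the list gave 0 higher and 2 lower, and so it did without ISO replicate 2, while 1 was higher without either ALLO library or with the replicate block.

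Mgp, the vitamin K-dependent inhibitor made by smooth muscle and chondrocytes (ENSMUSG00000030218.2, chromosome 6, 136872435 to 136875823), had 38657 and 37505 counts in ISO and 12045 and 31657 in ALLO. The ISO libraries were almost equal at 2260 CPM each, and the ALLO libraries were lower but far apart, at 619 and 1440 CPM. The log2 change was -1.14 ± 0.47 (95% interval -2.34 to 0.06, edgeR adjusted p = 0.126). Without ALLO replicate 1 the change was -0.62 and not called (edgeR adjusted p = 0.182). Without ALLO replicate 2 Mgp was called lower at -1.86 ± 0.32 (edgeR adjusted p = 0.0256), and DESeq2 called it lower with all 4 libraries (adjusted p = 0.0232), the lowest of 13 alternatives, which ran to 0.204. The smooth muscle markers were also the lower in ALLO replicate 1, in 8 of 8 genes. Their part in the Mgp values was not tested.

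Spp1, which encodes osteopontin, a phosphoprotein of bone and of activated macrophages (ENSMUSG00000029304.14, chromosome 5, 104435118 to 104441050, plus strand), had 1745 and 17 counts in ISO and 3174 and 6157 in ALLO. Both ALLO libraries, at 163 and 279 CPM, were above both ISO libraries, yet the ISO libraries differed 99.4 times from each other. Of the 16498 genes tested only 5 had a wider gap between the ISO libraries (on log2 of CPM plus 0.5). The log2 change of 2.10 ± 1.64 did not pass (95% interval -2.07 to 6.27, edgeR adjusted p = 0.376). Without ISO replicate 1 Spp1 was called, 213-fold higher at 7.73 ± 0.70 (edgeR adjusted p = 0.000123), and without ISO replicate 2 it was 2.14-fold higher and not called (0.165). The adjusted p ran from 0.000123 to 0.558 over 13 alternatives. Beside the 99.4 times of Spp1, the macrophage marker sum of ISO replicate 1 was 2.71 times and the neutrophil sum 9.66 times that of ISO replicate 2. The part of these cells, and of the Xist and Ddx3y difference, was not tested. Of the exonic bases of Spp1, 18.8% are shared with Gm42793 on the same strand.

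Per kilobase, Mgp exceeded Spp1 30.8 times in ISO replicate 1 and 3060 times in ISO replicate 2, against 5.27 and 7.14 times in the ALLO libraries. The ratio was lower in both ALLO libraries than in either ISO library, and it was not tested.

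Chad, the cartilage matrix protein chondroadherin (ENSMUSG00000039084.8, chromosome 11, 94565047 to 94569127), had 10 and 23 counts in ISO and 31 and 27 in ALLO. At 0.585 and 1.39 CPM against 1.59 and 1.23 CPM the groups overlapped, and the log2 change of 0.51 ± 0.68 did not pass (95% interval -1.21 to 2.23, edgeR adjusted p = 0.602).

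**Figure D3:**
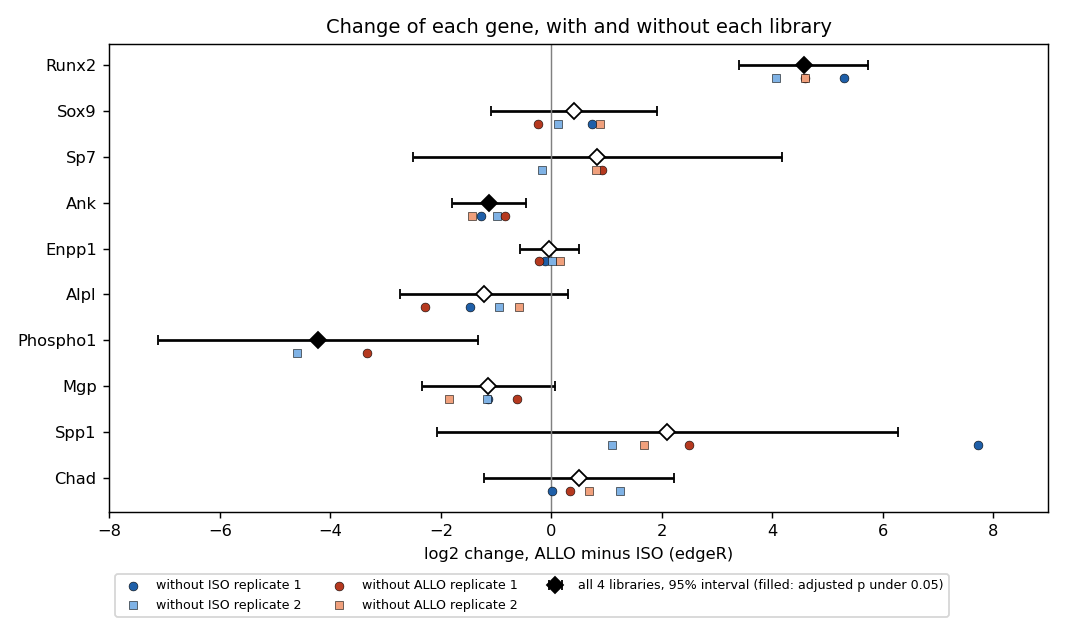
Log2 change (ALLO minus ISO) of each of the 10 genes from edgeR, as a diamond with its 95% interval, filled where the adjusted p was under 0.05. Smaller points below each diamond are the change with 1 library left out, not drawn where a group is then at 0 counts or the gene could not be fitted. Runx2 stays between 4.06 and 5.29, and Spp1 moves to 7.73 without ISO replicate 1.

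Receptors and proteases of osteopontin were called in both directions. Of 13 genes tested, 5 were higher, 7 lower and 1 did not pass, with a median of -1.49, while 18.4% of all genes were higher and 14.8% lower. Itga4, the integrin alpha 4 subunit of leukocytes, rose 12.9-fold (8.53-fold without ALLO replicate 1). Cd44, the hyaluronan and osteopontin receptor, had 1299 and 1520 counts in ISO and 5110 and 5109 in ALLO, a rise of 2.95-fold (edgeR adjusted p = 0.00786). Other integrin genes were lower. Itga9 fell from 1200 ± 64.8 to 115 ± 32.1 CPM, and Itgb3, the beta chain of the osteopontin receptor on osteoclasts and platelets, fell 4.07-fold (edgeR adjusted p = 0.00747).

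Of 12 further inhibitors of mineral and genes of the vitamin K cycle, 10 were tested, 3 were higher and 2 lower, beside 18.4% and 14.8% of all genes, with a median of -0.34. Grem1, a secreted antagonist of bone morphogenetic proteins, had 7 and 2 counts in ISO and 1696 and 1019 in ALLO. It was 244-fold higher (edgeR adjusted p = 0.00321, and 519- or 158-fold when ISO replicate 1 or 2 was dropped). Bmper, another binder of these proteins, had 119 and 31 against 595 and 1080 counts, 8.99-fold higher. Dropping ISO replicate 1 gave 21.0-fold and dropping ISO replicate 2 gave 5.63-fold, and its call was lost without ALLO replicate 2 (edgeR adjusted p = 0.0639). Stc1, stanniocalcin, was 2.33-fold higher, a call lost when any 1 library was left out. Ggcx, the carboxylase that makes matrix Gla protein active, fell 1.83-fold, a call also lost when any 1 library was left out (edgeR adjusted p = 0.0501 to 0.131). Gas6, a Gla protein that protects smooth muscle, fell 2.07-fold, a call that held only without ALLO replicate 2 among the 4 fits that leave out a library. Without ALLO replicate 2 the list had 1 higher, and without ISO replicate 2 or ALLO replicate 1 it had 0 lower.

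Bone morphogenetic protein signals are known to induce Runx2 in bone. Of 16 tested genes of this pathway, 9 were lower and 1 higher, with a median of -1.87. The list also holds inhibitors and targets of the pathway. The inhibitor Smad7 (log2 change -1.82) and the target Id1 (-2.05) were among the 9 lower. The 14.8% of all genes that were lower is the background here. Bmpr1b, a type I receptor of cartilage and bone, had 485 and 921 counts in ISO and 44 and 40 in ALLO, 20.6-fold lower (edgeR adjusted p = 0.00445). Bmpr1a, the widespread type I receptor, fell 4.30-fold and Smad9, a receptor-activated SMAD, fell 5.85-fold. Bmp7 was the member that was higher, with 0 and 2 counts in ISO and 43 and 46 in ALLO, and its call held only without ISO replicate 2 among the 4 fits that leave out a library.

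Osteoclast genes, the resorbing side of bone, were higher in 8 of 10 genes tested and lower in 2, with a median of 3.37, against 18.4% of all genes higher. With limma-voom or a mean count of 10 or more 7 were higher, and fewer than 8 when any 1 library was left out. Acp5, tartrate-resistant acid phosphatase, had 180 and 90 counts in ISO and 1717 and 1493 in ALLO, 9.76-fold higher (edgeR adjusted p = 0.00541). Car2, carbonic anhydrase, rose 10.9-fold and Ctsk, the collagen-cleaving cathepsin K, 3.52-fold. Dcstamp, with 0 and 0 counts in ISO and 72 and 133 in ALLO, was also called higher. So were Ocstamp (0 and 4 counts against 26 and 135) and Tnfsf11 (4 and 0 against 102 and 171). Atp6v0d2 (28 and 2 counts against 694 and 549) and Nfatc1 (1.83-fold) were called higher too. Calcr, the calcitonin receptor of osteoclasts, was at 0 in all 4 libraries, and Tnfrsf11a, the RANK receptor, fell 1.80-fold, and did not pass when either ISO library or ALLO replicate 2 was dropped. Without ISO replicate 1, ISO replicate 2 or ALLO replicate 2 the list then had 1 lower. Macrophages express several of these genes, and macrophage markers were higher in 10 of 10 cases, at 151 to 407 CPM in ISO and 3920 to 4180 CPM in ALLO. The part of macrophages in these values was not tested.

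**Figure D4:**
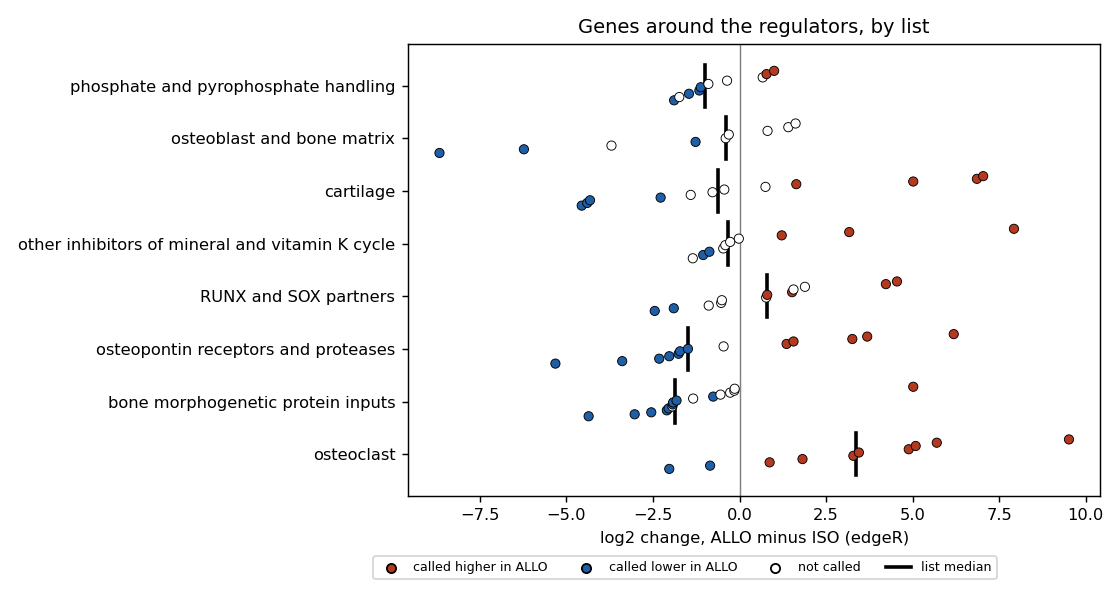
Log2 change (ALLO minus ISO, edgeR) of each tested gene in the 8 lists around the regulators, red where called higher, blue where called lower and white where not called, with the list median as a black bar. The osteoclast median is at 3.37 and the bone morphogenetic protein median at -1.87, while cartilage genes spread to both sides. The osteoclast point farthest to the right has 0 counts in ISO, so its position depends on the fit.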

How the data were processed

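The authors deposited raw counts per gene, 1 column per library, in the layout of featureCounts. The build was mm10, and Subread 1.6.4, featureCounts, R 4.0.3 and DESeq2 1.30.0 were used, per the submitters' processing notes. For the aligner, annotation release and strand setting the sources used here give nothing. Symbols came from GENCODE M21 for 54723 of the 54752 IDs. From 68.0% to 74.6% of counts from 1 to 20 were even, the pattern of both mates of a pair being counted, so counting intervals (exact binomial, 95%) used counts divided by 2. They cover counting error only.

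Genes were filtered with filterByExpr (minimum count 10), scaled by TMM (factors 0.926 to 1.09) and tested with edgeR 4.0.16 (glmQLFit, glmQLFTest, group as the only term) in R 4.3.3. The threshold was a Benjamini-Hochberg adjusted p of 0.05 over 16498 genes. The procedure was run on simulated counts in which all genes shared the same spread and far fewer genes were changed than were called here. That run therefore cannot vouch for genes with a wider spread, such as Spp1. The 10 genes, 8 pathway lists and 12 marker lists were chosen with earlier results of these data known. From each pathway list up to 3 genes per direction with the smallest adjusted p were to be named, and some of these are printed. Abcc6, Calcr, Matn1, Ucma, Acan, Bglap, Ibsp, Dmp1, Siglech, Bst2, Tcf4, Col1a1, Smad7 and Id1 fall outside that rule. So do Dcstamp, Ocstamp, Tnfsf11, Atp6v0d2, Nfatc1, Matn4, Ihh and Cox6a2. They were picked with their values in view, so they were chosen after seeing them. No gene was named for likeness of pattern, since 4 libraries are too few.

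Alternatives were DESeq2 size factors, library size only, no filter, a mean count of 10 or more, the DESeq2 1.42.0 Wald test, limma-voom (limma 3.58.1), a replicate block, each library left out, halved counts, and removal of 699 immunoglobulin and T cell receptor segments. Promoters, 250 bases before a start, are RefSeq's, and plots used matplotlib 3.10.9.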

Additional observations from a re-analysis of the deposited data

How the results depend on the processing

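Of the refits of the 10 genes, 108 kept direction and side of the threshold, 8 lost a call (Ank and Phospho1), 4 gained one (Alpl, Spp1, and Mgp under 2 settings) and 5 changed sign. The sign changes were Sox9 without ALLO replicate 1 (-0.24), Sp7 without ISO replicate 2 (-0.16) and Enpp1 with library size only (0.15), without ISO replicate 2 (0.01) and without ALLO replicate 2 (0.16). When 1 library was left out the log2 change ran from -0.24 to 0.89 for Sox9, from -0.16 to 6.37 for Sp7 (the highest with the ISO group at 0 counts) and from -0.23 to 0.16 for Enpp1. The cause was not tested. The number of the 10 genes called lower was 2, and 1 with library size only, no filter, a mean count of 10 or more, halved counts or the replicate block. With the DESeq2 Wald test it was 3, Mgp being added. It ran from 0 to 2 when 1 library was left out, and the number called higher from 1 to 2. With halved counts or a mean count of 10 or more Phospho1 and Sp7 were not tested. Over all genes, leaving out 1 library gave 1512 to 2245 lower and 2054 to 2506 higher calls, from fewer samples. Leaving out 1 library leaves a group with a single sample, assumed to vary like the other group.

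The replicate block gave 4873 calls over all genes and 1 of the 10 genes lower. The numbers are not stated to mark a shared animal or day, and the deviations of same-numbered libraries correlated at 0.0754 across genes, so the pairing is only in name. Sp7, Phospho1, Chad and Sox9 had at most 85 counts in any library. With halved counts the SE of the log2 change was 0.56 in place of 0.59 for Sox9 and 0.62 in place of 0.68 for Chad.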
